A study of Homo sapiens with 21 samples.

Results

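The genes described here are 10 members of the transforming growth factor beta (TGF-beta) pathway, namely the ligands TGFB1, TGFB2 and TGFB3, the latency proteins LTBP1 and LTBP2, the receptors TGFBR1, TGFBR2 and TGFBR3, the signal transducer SMAD3 and the secreted target TGFBI. They were chosen by gene symbol and make up 10 of the 60617 genes in each table, and all 10 passed the filter on low counts that left 18632 genes to test. Poly(A) RNA was sequenced from one end in 7 lines of the human breast cancer cell line SUM149PT, with 3 libraries a line. The lines are the clones M2, M1, EM3, EM2, EM1 and E and the Parental line, and all 7 are labelled as inflammatory breast cancer cells without oestrogen and progesterone receptors. None of the lines was treated. Each clone name stands for 1 derived line, the letters are not spelled out, and how the clones were obtained is not given in the sources used here. Nothing in the labels tells whether replicates were separate cultures, and every p-value therefore measures library-to-library spread that may be technical.

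TGF-beta is made as a latent complex in which the mature dimer is held by its own propeptide. Latent TGF-beta binding proteins tether that complex to the extracellular matrix, and integrins that pull on it release the ligand. Released ligand is bound by the type 2 receptor TGFBR2, which recruits and phosphorylates the type 1 receptor TGFBR1, and TGFBR1 in turn phosphorylates SMAD2 and SMAD3. The pathway is a known inducer of the epithelial-mesenchymal transition in breast epithelial cells, in which cells lose adhesion and keratin genes and gain vimentin and matrix genes.

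Each library held 24602417 to 48149939 expected counts in total. The libraries fell into sets by effective length, the RSEM measure of the transcript length open to reads, averaged over expressed genes. The short set, at 1980 to 2034 bases, held all 3 E libraries and replicate 3 of each other clone, 8 libraries in all. The long set, at 2110 to 2223 bases, held replicates 1 and 2 of those 5 clones, 10 libraries, and the 3 Parental libraries had 2054 to 2114 bases. E has no library in the long set, so a difference between E and another clone and a difference between the sets cannot be told apart for replicates 1 and 2. For this reason values from a fit in which the set is a term are given beside many of the results. Of the epithelial markers, E-cadherin (CDH1) averaged 0.053 TPM (transcript abundance scaled by length and library) in M2 and 0.080 TPM in M1, against 107.5 TPM in E. EPCAM averaged 0.127 TPM in M2, 1.98 in M1 and 168 in E, and KRT19 0.30, 9.43 and 852 TPM in the same order. The keratins KRT8 (525, 363 and 4568 TPM) and KRT18 (136, 66.4 and 467 TPM) were lower than in E but still present in both M clones. The mesenchymal filament vimentin (VIM) averaged 2102 TPM in M2 and 2664 TPM in M1, against 13.8 TPM in E. ZEB1 averaged 26.7 TPM in M2, 33.3 in M1 and 0.173 in E, and CDH2 45.5, 81.9 and 8.50 TPM in the same order. The mesenchymal marker FN1 averaged 680 TPM in M2, 4252 in M1 and 454 in E, and at 892 TPM in EM2 it was above M2. The progesterone receptor gene PGR averaged at most 0.020 TPM in any line and the oestrogen receptor gene ESR1 at most 1.71 TPM. The leukocyte marker CD3E averaged at most 0.017 TPM in any line and PTPRC at most 0.557 TPM, while CD68, a lysosomal protein that is not restricted to leukocytes, averaged 26.0 to 193 TPM. In bulk RNA, fewer cells of a type and less RNA per cell cannot be told apart.

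The promoters of LTBP1, TGFB2 and TGFBR2 are shown because LTBP1 and TGFB2 were called in opposite directions in the M clones, and because TGFBR2 was higher in both M clones and followed the library set in the M and EM clones. The windows are RefSeq sequences on GRCh38.p14, from 250 bases before an annotated start site, and all 10 members had a window. Capitals mark the Smad box CAGAC, the short element read by Smad proteins, in LTBP1 and TGFB2, and the AP-1 element TGANTCA in TGFBR2. Both strands were searched.
LTBP1: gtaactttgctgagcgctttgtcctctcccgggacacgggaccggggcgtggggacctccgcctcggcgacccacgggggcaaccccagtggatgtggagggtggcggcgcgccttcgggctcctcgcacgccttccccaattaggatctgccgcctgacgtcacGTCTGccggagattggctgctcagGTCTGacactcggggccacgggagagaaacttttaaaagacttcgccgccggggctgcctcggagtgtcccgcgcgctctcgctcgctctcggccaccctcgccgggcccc
TGFB2: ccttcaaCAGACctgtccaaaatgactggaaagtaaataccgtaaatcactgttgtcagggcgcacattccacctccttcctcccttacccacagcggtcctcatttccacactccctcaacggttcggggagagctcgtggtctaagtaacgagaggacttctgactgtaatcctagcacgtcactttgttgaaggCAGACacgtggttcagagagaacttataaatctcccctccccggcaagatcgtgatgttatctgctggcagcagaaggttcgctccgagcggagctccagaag
TGFBR2: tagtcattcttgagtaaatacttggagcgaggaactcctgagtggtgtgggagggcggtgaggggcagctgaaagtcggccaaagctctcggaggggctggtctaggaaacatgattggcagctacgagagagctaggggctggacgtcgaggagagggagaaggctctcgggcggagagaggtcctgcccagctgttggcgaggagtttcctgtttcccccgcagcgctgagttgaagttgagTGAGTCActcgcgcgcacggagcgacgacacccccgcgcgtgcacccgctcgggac
The LTBP1 window, chr2:32946703-32947002 on the forward strand, held 2 Smad boxes, both on the reverse strand, and its start site lies 19 bases from the GENCODE gene start. The TGFB2 window, chr1:218345086-218345385 on the forward strand, held 2 Smad boxes on the forward strand, and its start site lies 899 bases from the GENCODE gene start. The TGFBR2 window, chr3:30606351-30606650 on the forward strand, held 1 AP-1 element that ends at the start site and no Smad box. A Smad box was present in 45.3% of the 35116 promoter windows of the same table, the AP-1 element in 7.7% and the E-box CAGGTG in 20.6%. Of the other members, TGFB3 and TGFBR1 each held 2 Smad boxes, LTBP2 and SMAD3 each held 1, and TGFBR1 also held 1 E-box, while none of these motifs lay in the windows of TGFB1, TGFBR3 and TGFBI. The start site of the TGFBR3 window lies 20184 bases, and that of SMAD3 1839 bases, from the GENCODE gene start. Where a gene had several windows, such as 8 for TGFBR1, 5 for SMAD3 and 3 for LTBP1, only the nearest to that start was searched.

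The clones M2 and M1, which had little CDH1 and much VIM, had opposite profiles of the ligand TGFB2 and of LTBP1, while both had more TGFBR2, TGFBR3 and TGFBI than E. In M1, 6 members were called higher and 1 lower than in E (edgeR quasi-likelihood test, Benjamini-Hochberg adjusted p under 0.05), in a comparison that called 36.2% of all genes, 18.1% higher and 18.1% lower. In M2, 3 members were called higher and 4 lower than in E, where 51.3% of all genes were called, 24.6% higher and 26.8% lower. The EM clones differed from E in fewer members, with 3 called higher in EM3, 1 in EM2 and 3 in EM1 and none lower. The shares of all genes called were 17.3% in EM3 (9.36% higher, 7.96% lower), 13.9% in EM2 (6.95% in each direction) and 17.9% in EM1 (9.84% higher, 8.09% lower). The median log2 fold change of the 10 members against E was -0.14 in M2, 1.51 in M1, 0.51 in EM3, 0.74 in EM2 and 0.45 in EM1, beside 0.01 to 0.04 over all genes tested. Where the fit had the set as a term, 4 members were called higher and 3 lower in M2, 8 higher and 0 lower in M1, 3 higher in EM3, 2 higher in EM2 and 3 higher in EM1. Of all genes, that fit called 53.4% in M2, 36.1% in M1, 17.6% in EM3, 16.1% in EM2 and 16.1% in EM1. These 5 comparisons share the 3 E libraries. Without E replicate 1 the EM1 count fell to 1, and without E replicate 2, E replicate 3 or EM3 replicate 3 the EM3 count fell to 1. The EM2 count was 2 without EM2 replicate 3 or M1 replicate 3.

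**Figure D1:**
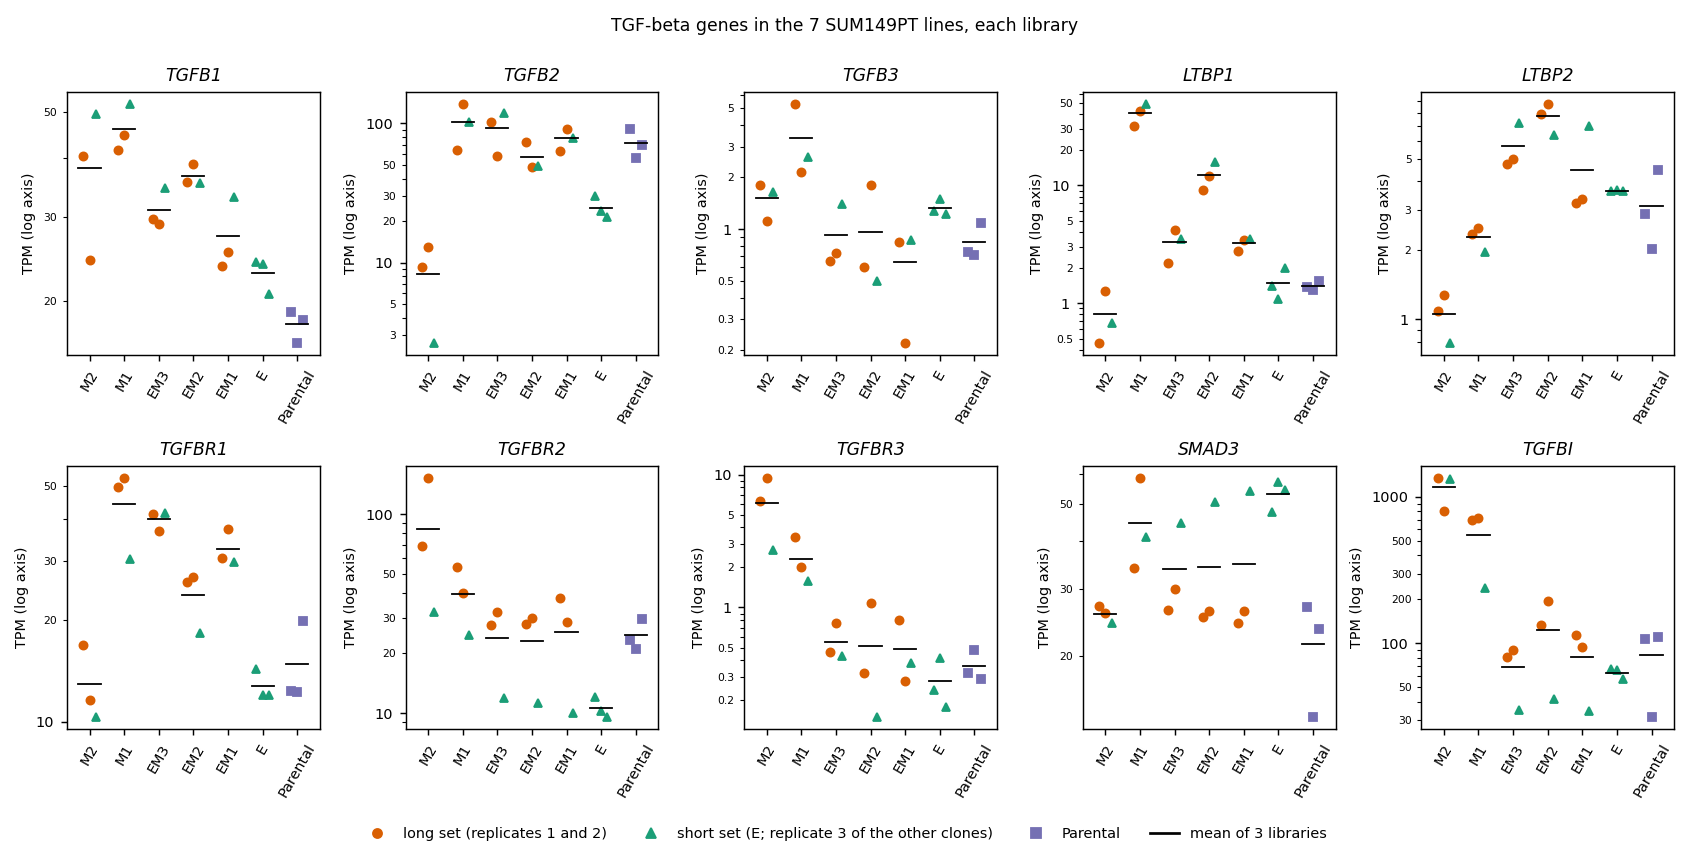
TPM of each of the 10 TGF-beta genes (log axis) in every library of the 7 lines, with circles for the long set, triangles for the short set, squares for Parental and a bar for the mean of 3 libraries. LTBP1 spans 0.46 to 49.2 TPM with its highest values in M1, and in TGFBR2 the replicate 3 libraries of the EM clones sit among the E libraries.

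TGFB1, the most studied ligand, lies on the reverse strand at chr19:41301587-41353911 and was present in all lines. TGFB1 had 40.5, 24.4 and 49.5 TPM in the 3 M2 libraries and 41.7, 44.8 and 52.1 TPM in the 3 M1 libraries, against 24.2, 23.9 and 20.7 TPM in E. In the EM clones TGFB1 measured 29.8, 29.1 and 34.6 TPM in EM3, 35.7, 38.9 and 35.4 TPM in EM2 and 23.7, 25.4 and 33.1 TPM in EM1. By TPM the M2, M1, EM3 and EM2 libraries lay above all 3 E libraries, M2 replicate 2 by the least, whereas EM1 overlapped E. By CPM (counts scaled to the library total), M2 replicate 2 (59.15) and EM3 replicates 1 and 2 (67.58 and 66.53) lay below all E libraries (68.1 to 73.78). The other libraries of M2, M1, EM3 and EM2 lay above E by CPM too. In the fit with 1 mean per line TGFB1 was not called in M2 (log2 fold change 0.47 ± 0.31 SE), M1 (0.64 ± 0.31) or EM2 (0.42 ± 0.31), with edgeR adjusted p of 0.214, 0.111 and 0.415. TGFB1 counts were lower in the long set than in the short set of the same clones (log2 difference -0.69 ± 0.11, edgeR adjusted p = 0.000139), a comparison added after seeing the data in which 44.5% of all genes were called, with 21.4% higher and 23.1% lower, and in which 3 members were higher and 1 lower. With the set as a term TGFB1 was called higher than in E in M2 (0.85 ± 0.19, edgeR adjusted p = 0.000904), in M1 (1.07 ± 0.19, adjusted p = 0.000221) and in EM2 (0.87 ± 0.19, adjusted p = 0.00384). That fit called 53.4% of all genes in M2, 36.1% in M1, 17.6% in EM3, 16.1% in EM2 and 16.1% in EM1. Without M2 replicate 2, the M2 value was 0.76 with an edgeR adjusted p of 0.0417 in the fit with 1 mean per line. On the log2(TPM + 1) scale, which divides by effective length, limma called TGFB1 higher in M2 (0.65, adjusted p = 0.0124), M1 (0.98, adjusted p = 0.00107) and EM2 (0.65, adjusted p = 0.0376). TGFB1 overlaps HNRNPUL1 on the other strand, which reached 191 TPM, and since the strand setting is not known their reads cannot be told apart where they overlap.

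TGFB2, a ligand that needs TGFBR3 for efficient receptor binding, had the widest range of the ligands. Its locus is chr1:218346235-218444619 on the forward strand. TGFB2 had 9.33, 13.02 and 2.65 TPM in M2, 64.6, 139 and 102 TPM in M1, 103, 58.0 and 118 TPM in EM3, 74.2, 48.7 and 49.2 TPM in EM2 and 63.6, 91.8 and 79.3 TPM in EM1. In E it had 29.9, 23.4 and 21.1 TPM, and in Parental 91.4, 56.4 and 70.4 TPM. All M2 libraries lay below all E libraries, and all libraries of the other lines lay above them. Against E, TGFB2 was lower in M2 (log2 fold change -2.19 ± 0.42, edgeR adjusted p = 0.000253) and higher in M1 (1.58 ± 0.41, adjusted p = 0.00528), EM3 (1.51 ± 0.41, adjusted p = 0.0148) and EM1 (1.23 ± 0.40, adjusted p = 0.0416). In EM2 it was 0.84 ± 0.40 on the log2 scale, which was not called (edgeR adjusted p = 0.187). The EM3 call ended without E replicate 2, E replicate 3 or EM3 replicate 3 (edgeR adjusted p of 0.0609, 0.0689 and 0.0737). The EM1 call ended without any 1 of 11 libraries, with adjusted p up to 0.138 without E replicate 3; the others were E replicates 1 and 2, EM1 replicates 2 and 3, EM2 replicates 1 and 3, EM3 replicate 1, M1 replicate 2 and Parental replicates 2 and 3. With the set as a term TGFB2 was called at -1.99 in M2, 1.72 in M1, 1.63 in EM3 and 1.37 in EM1, and was not called at 0.99 in EM2. Replicates 1 and 2 had more CPM than replicate 3 in M2 (29.95 and 36.82 against 11.59). They had less in EM3 (324.78 and 194.03 against 506.93) and EM1 (201.98 and 290.66 against 333.97). In M1 and EM2, replicate 3 lay between them. TGFB2-OT1, on the same strand within the gene, reached 18.6 TPM, so its reads cannot be told apart from TGFB2 in the shared part.

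TGFB3 was the least expressed ligand, with 10 to 227 expected counts a library. On the reverse strand, it spans chr14:75958099-75982991. It had 1.81, 1.12 and 1.63 TPM in M2, 5.32, 2.14 and 2.63 TPM in M1, and 1.27, 1.5 and 1.22 TPM in E. In the EM clones and Parental it ranged from 0.22 to 1.80 TPM. M1 lay above all libraries of the other lines. Its log2 fold change in M1 against E was 0.95 ± 0.49 (edgeR adjusted p = 0.139), and with the set as a term 1.40 ± 0.49, which was called (adjusted p = 0.0312). IFT43, on the other strand over part of TGFB3, reached 33.6 TPM, and their reads cannot be told apart where they overlap.

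LTBP1 covalently holds latent TGF-beta and anchors it in the matrix, and it separated the lines more than any other member, with a ratio of 51.4 between the highest and the lowest line mean. It spans chr2:32946972-33399509 on the forward strand, and that start lies inside the promoter window printed above. LTBP1 had 0.46, 1.27 and 0.68 TPM in M2, 31.6, 43.0 and 49.2 TPM in M1, 2.18, 4.19 and 3.47 TPM in EM3, 9.07, 12.0 and 15.7 TPM in EM2 and 2.74, 3.44 and 3.48 TPM in EM1. E had 1.39, 1.09 and 1.97 TPM and Parental 1.36, 1.3 and 1.55 TPM. All M1 libraries lay above all others, the EM2 libraries came next without overlap, and M2 was lowest with 1 library inside the range of E. Of the 21 pairs of lines, 18 did not overlap, the most of any member. Against E, LTBP1 was lower in M2 (log2 fold change -1.46 ± 0.26, edgeR adjusted p = 0.000138) and higher in M1 (4.51 ± 0.29, adjusted p = 1.48e-09) and EM2 (2.86 ± 0.27, adjusted p = 1.24e-06). It was also higher in EM3 (0.78 ± 0.25, adjusted p = 0.0379) and EM1 (0.95 ± 0.25, adjusted p = 0.0137). The EM1 call ended without E replicate 1 (adjusted p = 0.0723). The EM3 call ended without E replicate 1, 2 or 3, EM1 replicate 2, EM3 replicate 2 or 3, or M1 replicate 2, with edgeR adjusted p of 0.0519 to 0.134, and also with no filter on low counts (adjusted p = 0.0683), with DESeq2 size factors (adjusted p = 0.0501) and with limma-voom (adjusted p = 0.0504). The M2 value was not called on the log2(TPM + 1) scale (-0.47, adjusted p = 0.113). In the fit that has the set as a term, all 5 LTBP1 differences from E were called, at log2 values of -1.25 in M2, 4.72 in M1, 0.99 in EM3, 3.06 in EM2 and 1.16 in EM1.

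LTBP2, a matrix protein of the same family that does not bind latent TGF-beta, was lower in both M clones. Its locus is chr14:74498170-74612378 on the reverse strand. LTBP2 had 1.09, 1.28 and 0.79 TPM in M2 and 2.37, 2.50 and 1.97 TPM in M1, against 3.65, 3.68 and 3.62 TPM in E. In the EM clones it had 3.23 to 8.75 TPM and in Parental 2.03 to 4.48 TPM. Both M clones lay below all E libraries. Against E, LTBP2 was lower in M2 (log2 fold change -2.05 ± 0.31, edgeR adjusted p = 2.85e-05) and in M1 (-0.95 ± 0.30, adjusted p = 0.0204). With the set as a term the M1 value was -0.83 and was not called (edgeR adjusted p = 0.0541). The M1 call also ended without E replicate 2 (adjusted p = 0.0533), E replicate 3 (adjusted p = 0.0522) or M1 replicate 1 (adjusted p = 0.0873), and on the log2(TPM + 1) scale (-0.51, adjusted p = 0.119).

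TGFBR1, the kinase that phosphorylates SMAD2 and SMAD3, was highest in M1 and the EM clones. On the forward strand, it spans chr9:99104038-99154192. TGFBR1 had 16.9, 11.6 and 10.3 TPM in M2, 49.9, 53.0 and 30.5 TPM in M1, 41.3, 36.8 and 41.6 TPM in EM3, 26.0, 26.8 and 18.4 TPM in EM2 and 30.6, 37.3 and 29.7 TPM in EM1, against 14.3, 12.0 and 12.0 TPM in E. All M1 and EM libraries lay above all E libraries, while M2 overlapped E. Against E, TGFBR1 was higher in M1 (log2 fold change 1.82 ± 0.29, edgeR adjusted p = 8.33e-05), EM3 (1.53 ± 0.29, adjusted p = 0.00117) and EM1 (1.43 ± 0.29, adjusted p = 0.0021), but the EM2 value of 0.75 ± 0.28 was not called (adjusted p = 0.0864). The EM2 value was called without EM2 replicate 3 (adjusted p = 0.036), without M1 replicate 3 (adjusted p = 0.0466) and with a replicate block (0.72, adjusted p = 0.0451). The EM3, EM1 and M1 calls held with the set as a term, at log2 values of 1.34 in M1, 1.13 in EM3 and 0.98 in EM1. The EM2 value in that fit was 0.30 ± 0.19, which was not called (adjusted p = 0.327). TGFBR1 counts were higher in the long set than in the short set of the same clones (log2 difference 0.62 ± 0.12, edgeR adjusted p = 0.00055). Its effective length was 3345 to 4477 bases in the long set and 2531 to 3041 bases in the short set, so TPM and counts of TGFBR1 differ in scale between the sets.

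TGFBR2, the receptor that binds the ligand first, had its highest line means in the M clones. It spans chr3:30606502-30694142 on the forward strand. TGFBR2 had 69.0, 152 and 32.4 TPM in M2 and 54.3, 40.1 and 24.6 TPM in M1, against 12.0, 10.3 and 9.57 TPM in E. Both M clones lay above all E libraries, but M1 overlapped Parental and each EM clone, and M2 overlapped EM1. Against E, TGFBR2 was higher in M2 (log2 fold change 2.59 ± 0.46, edgeR adjusted p = 0.000136) and in M1 (1.44 ± 0.44, adjusted p = 0.0162). In the fit that has the set as a term, both calls held, at 1.73 ± 0.25 in M2 (adjusted p = 1.64e-05) and 0.70 ± 0.25 in M1 (adjusted p = 0.0334). The M1 call ended without E replicate 2 (adjusted p = 0.0545), E replicate 3 (adjusted p = 0.0585) or M1 replicate 1 (adjusted p = 0.0608).

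In the M and EM clones the TGFBR2 level followed the library set, with replicate 3 lowest in each clone. In M2 it had 69.0 and 152 TPM in replicates 1 and 2 against 32.4 TPM in replicate 3. In M1 it had 54.3 and 40.1 TPM in replicates 1 and 2 against 24.6 TPM in replicate 3. In replicates 1 and 2 TGFBR2 had 27.6 and 32.1 TPM in EM3, 28.1 and 30.2 TPM in EM2 and 37.8 and 28.6 TPM in EM1. In replicate 3 it had 11.9 TPM in EM3, 11.2 TPM in EM2 and 9.98 TPM in EM1, all inside the range of the E libraries. The values of the EM clones over 3 libraries were not called, at log2 fold changes of 0.71 ± 0.44 in EM3, 0.76 ± 0.44 in EM2 and 0.88 ± 0.44 in EM1 (edgeR adjusted p of 0.283, 0.286 and 0.173). With the set as a term the values were -0.11 in EM3, -0.055 in EM2 and -0.0044 in EM1. Without EM1 replicate 3 the EM1 value was 1.19 (edgeR adjusted p = 0.0462). The difference between the long and the short set of the same clones was 1.11 ± 0.16 on the log2 scale (edgeR adjusted p = 5.03e-05). The effective length of TGFBR2 was 4299 to 4304 bases in all libraries. Its TPM and CPM still differed in scale between libraries, at 54.3 TPM and 227 CPM in M1 replicate 1 against 12.0 TPM and 70.7 CPM in E replicate 1. By CPM, replicate 3 of EM3 (62.54) and EM2 (61.06) lay inside the range of E (58.01 to 70.73), but EM1 replicate 3 (52.95) lay below it.

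**Figure D2:**
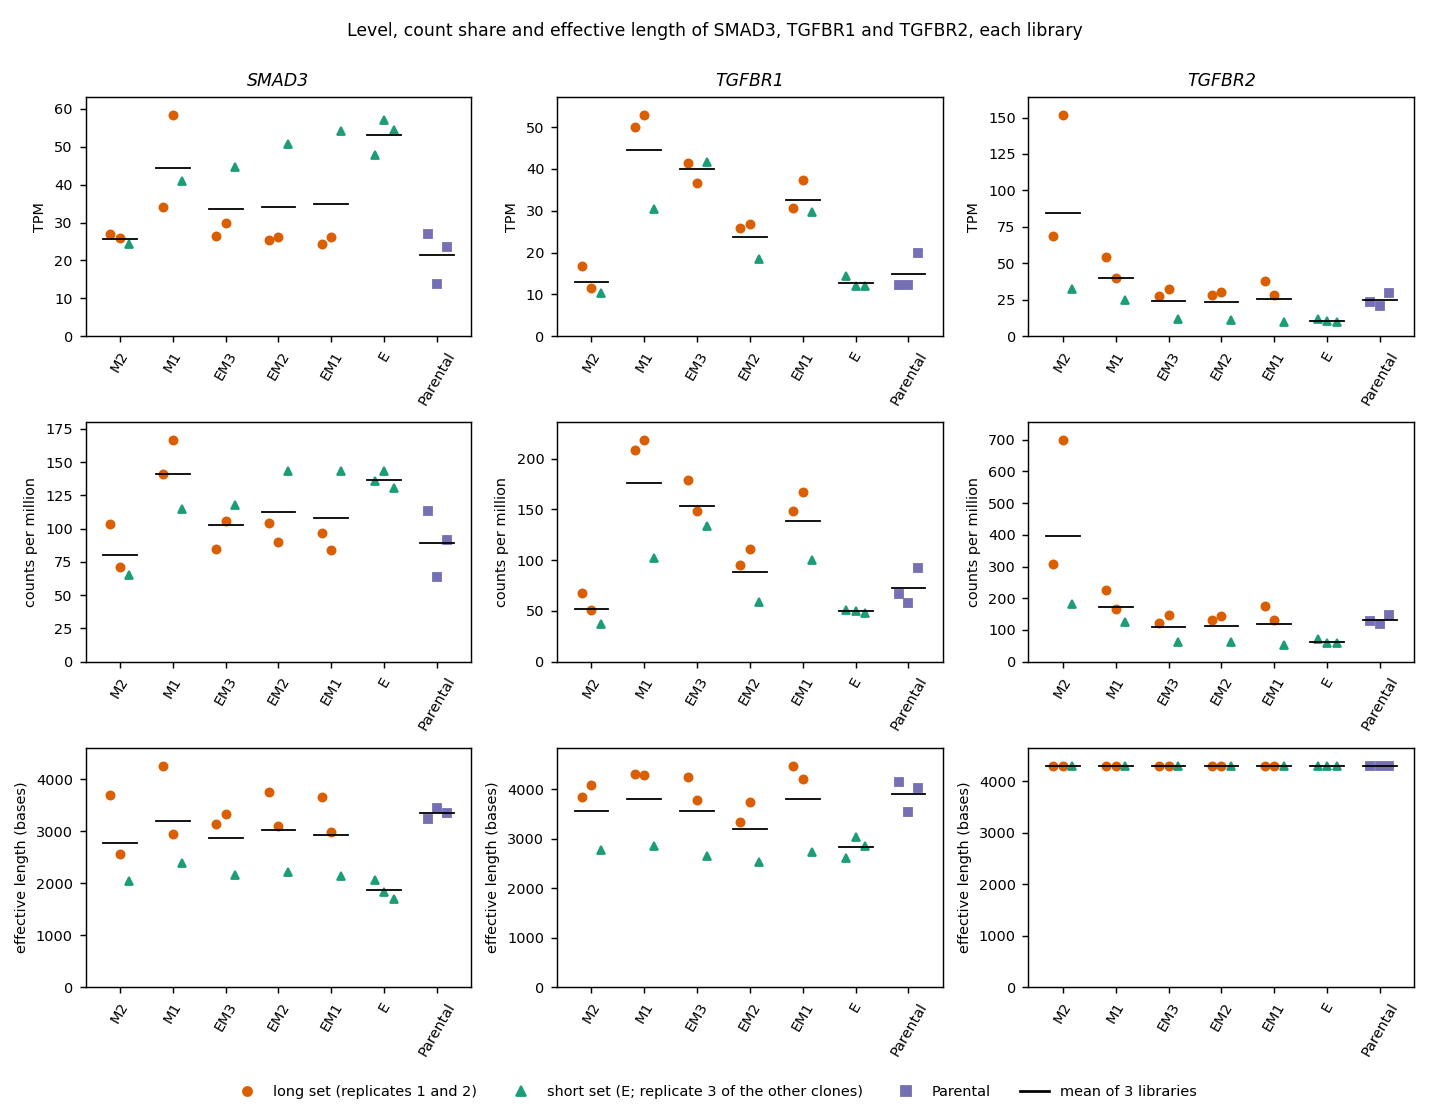
TPM, CPM (counts scaled to the library total) and effective length in bases of SMAD3, TGFBR1 and TGFBR2 in each library of the 7 lines, with circles for the long set, triangles for the short set, squares for Parental and a bar for the mean of 3 libraries. Replicate 3 of EM3, EM2 and EM1 sits beside E for TGFBR2, at 9.98 to 11.9 TPM.

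TGFBR3 (betaglycan), the co-receptor that presents TGFB2, was present at low levels, with 22 to 833 expected counts a library. Its locus is chr1:91680343-91906335 on the reverse strand. TGFBR3 had 6.33, 9.43 and 2.69 TPM in M2 and 3.38, 2.00 and 1.58 TPM in M1, against 0.24, 0.42 and 0.18 TPM in E. In the EM clones and Parental it had 0.15 to 1.08 TPM, below all M libraries. Against E, TGFBR3 was higher in M2 (log2 fold change 4.31 ± 0.63, edgeR adjusted p = 1.78e-05) and in M1 (3.46 ± 0.61, adjusted p = 0.000241). In the fit that has the set as a term, the values were 3.31 in M2 and 2.47 in M1, and both calls held. TGFBR3 counts were also higher in the long set than in the short set (log2 difference 1.31 ± 0.25, edgeR adjusted p = 0.000519).

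SMAD3, the receptor-activated transcription factor, differed least among the lines, with a ratio of 2.5 between the highest and the lowest line mean. On the forward strand, it spans chr15:67063763-67195195. SMAD3 had 27.0, 25.9 and 24.4 TPM in M2, 34.0, 58.5 and 40.9 TPM in M1 and 24.4 to 54.1 TPM in the 9 EM libraries, against 47.8, 57.0 and 54.4 TPM in E. All M2 libraries lay below all E libraries. SMAD3 was called lower than in E in M2 (log2 fold change -0.81 ± 0.28, edgeR adjusted p = 0.0209). The M2 call ended with the set as a term (-0.65, adjusted p = 0.0717) and without E replicate 2 (adjusted p = 0.0543), M2 replicate 2 (adjusted p = 0.0769) or M2 replicate 3 (adjusted p = 0.068). In the EM clones SMAD3 had 24.4 to 30.0 TPM in replicates 1 and 2 and 44.6 to 54.1 TPM in replicate 3. Its effective length was 2565 to 4269 bases in the long set and 1704 to 2390 bases in the short set. Over the clones its counts differed between the sets by -0.23 ± 0.18 on the log2 scale (edgeR adjusted p = 0.311), but in opposite directions. CPM in replicates 1 and 2 was lower than in replicate 3 in EM3 (84.64 and 106.08 against 117.49), EM2 (104.07 and 89.85 against 142.9) and EM1 (96.66 and 83.7 against 142.93). The reverse held in M1 (141.16 and 166.5 against 114.62) and M2 (103.71 and 70.85 against 65.2). An antisense gene over SMAD3, AC087482.1, reached 0.74 TPM.

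TGFBI, a secreted matrix protein named for its induction by TGF-beta, was the most abundant member in the M clones. It spans chr5:136028895-136063818 on the forward strand. TGFBI had 1349, 807 and 1327 TPM in M2 and 699, 722 and 239 TPM in M1, against 66.8, 65.3 and 57.3 TPM in E. All M2 libraries lay above all M1 libraries, and all M1 libraries above the other 5 lines, where the highest was 194 TPM in EM2. Against E, TGFBI was higher in M2 (log2 fold change 4.0 ± 0.52, edgeR adjusted p = 4.19e-06) and in M1 (2.7 ± 0.49, adjusted p = 0.000311). With the set as a term the values were 3.72 in M2 and 2.23 in M1, and both calls held. In the EM clones replicate 3 had 34.9 TPM in EM3, 41.6 TPM in EM2 and 34.3 TPM in EM1, all below E, while replicates 1 and 2 had 81.0 to 194 TPM, all above E. The difference between the long and the short set of the same clones was 0.61 ± 0.31 (edgeR adjusted p = 0.118), but it was called without M2 replicate 2 or M2 replicate 3. M1 had 1096 and 1333 CPM in replicates 1 and 2 against 579 CPM in replicate 3. M2 went the other way, with 2515 and 1544 CPM against 3481 CPM. The fit with the set as a term takes the set difference as equal in all clones, which TGFBI, TGFB2 and SMAD3 did not show.

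Between the M clones, 2 members were called higher in M2 than in M1 and 5 lower, in a comparison that called 41.2% of all genes, 19% higher and 22.2% lower. LTBP1 was lower in M2 by the largest log2 fold change of the members, -5.97 ± 0.31 (edgeR adjusted p = 3.34e-11), and TGFB2 was lower by -3.77 ± 0.44 (adjusted p = 1.75e-06). TGFBR1 (-1.82 ± 0.29, adjusted p = 5.53e-05), LTBP2 (-1.10 ± 0.31, adjusted p = 0.00768) and SMAD3 (-0.87 ± 0.28, adjusted p = 0.0186) were also lower in M2. TGFBI (1.3 ± 0.47, adjusted p = 0.033) and TGFBR2 (1.14 ± 0.44, adjusted p = 0.0451) were higher in M2. TGFBR3 (0.85 ± 0.55, adjusted p = 0.234) and TGFB3 (-1.24 ± 0.50, adjusted p = 0.0546) were not called. In the fit that has the set as a term, both of these were called, TGFBR3 at 0.84 (adjusted p = 0.0484) and TGFB3 at -1.32 (adjusted p = 0.0184), and 51.3% of all genes were. TGFB3 was also called with a replicate block (-1.29, adjusted p = 0.0339) and without EM1 replicate 2 or 3, EM3 replicate 3, M1 replicate 2 or M2 replicate 3, with edgeR adjusted p of 0.0405 to 0.0466. The SMAD3 call ended without M1 replicate 2 (adjusted p = 0.101), M2 replicate 2 (adjusted p = 0.0691) or M2 replicate 3 (adjusted p = 0.0674), on the log2(TPM + 1) scale (adjusted p = 0.087) and in a fit of these lines alone (adjusted p = 0.0516). The TGFBI call ended without M1 replicate 1 or 3 or M2 replicate 1 or 3, with adjusted p of 0.0544 to 0.149, on the log2(TPM + 1) scale (adjusted p = 0.139) and in the long set alone (0.69, adjusted p = 0.0609). The TGFBR2 call ended without M2 replicate 2, where the log2 value was 0.49 (adjusted p = 0.378), and without E replicate 2 or 3, EM3 replicate 1, M1 replicate 2 or 3 or Parental replicate 1, at adjusted p of 0.0511 to 0.143. It ended too with limma-voom (adjusted p = 0.0869), on the log2(TPM + 1) scale (adjusted p = 0.222) and in a fit of these lines alone (adjusted p = 0.0755).

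**Figure D3:**
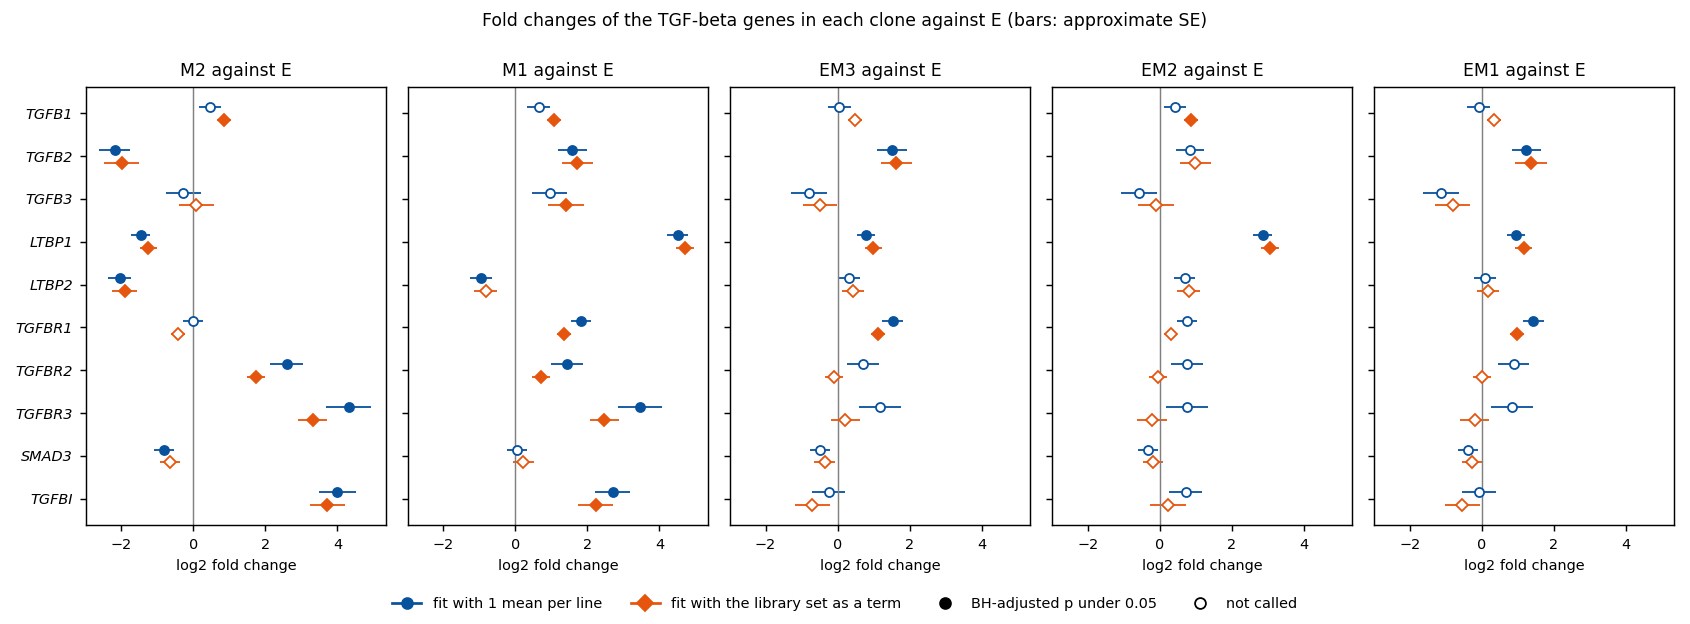
Log2 fold changes of the 10 TGF-beta genes in each clone against E, with bars for approximate standard errors, circles for the fit with 1 mean per line, diamonds for the fit with the set as a term and filled symbols for adjusted p under 0.05. LTBP1 reaches 4.51 in M1 and -1.46 in M2 against E, and TGFB2 stands at 1.58 in M1 and -2.19 in M2.

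Among the EM clones LTBP1 was the member that differed, with EM2 higher than EM1 (log2 fold change 1.91 ± 0.26, edgeR adjusted p = 7.4e-05) and EM3 lower than EM2 (-2.08 ± 0.26, adjusted p = 3.9e-05). It was the only member called in either comparison, where 8.14% (3.5% higher, 4.63% lower) and 6.74% (3.93% higher, 2.81% lower) of all genes were called. TGFBR1 was higher in EM3 than in EM2 by 0.78 ± 0.28, which was not called (adjusted p = 0.122), and by 0.80 ± 0.24 with a replicate block, which was (adjusted p = 0.0466). Same-numbered EM3 and EM2 libraries deviated together in all 3 pairs, which cannot be told apart from the library set that each pair shares. With the set as a term TGFBR1 was called in both comparisons, at 0.82 in EM3 against EM2 (adjusted p = 0.00412) and at -0.68 in EM2 against EM1 (adjusted p = 0.013), and TGFB1 at 0.54 in EM2 against EM1 (adjusted p = 0.0415). That fit called 11.5% of all genes in EM3 against EM2, 15.1% in EM2 against EM1 and 0.719% in EM3 against EM1. Without EM1 replicate 3 the EM2 against EM1 count was 2. Between EM3 and EM1 none of the 10 members was called by edgeR, limma-voom or DESeq2, and 0 had an unadjusted p under 0.05, in a comparison that called 0.37% of all genes, 0.172% higher and 0.199% lower.

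E and Parental differed in no member at an adjusted p under 0.05 by edgeR, limma-voom or DESeq2, and 4 had an unadjusted p under 0.05 by each of the 3 tools, where edgeR called 10.9% of all genes, 5.02% higher and 5.93% lower. TGFB2 had 29.9, 23.4 and 21.1 TPM in E against 91.4, 56.4 and 70.4 TPM in Parental, with no overlap (log2 fold change -1.02 ± 0.40, edgeR adjusted p = 0.106). TGFBR2 had 9.57 to 12.0 TPM in E against 20.97 to 29.6 TPM in Parental (-0.97 ± 0.44, adjusted p = 0.154), and with a replicate block it was called (-1.0, adjusted p = 0.0373). SMAD3 had 47.8 to 57.0 TPM in E against 13.8 to 26.9 TPM in Parental (0.68 ± 0.28, adjusted p = 0.118), and without Parental replicate 1 it was called (1.01, adjusted p = 0.0409). The Parental libraries had mean effective lengths of 2054, 2080 and 2114 bases, beside at most 2034 bases in the short set and at least 2110 bases in the long set. They were put in neither set, so the fit with the set as a term gives no value for them.

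Of 47 other genes of the pathway, 46 were tested, the exception being ASPN. Against E, 9 of the 46 were called higher and 15 lower in M2, 17 higher and 5 lower in M1, 7 higher and 3 lower in EM3, 6 higher and 1 lower in EM2, and 7 higher and 5 lower in EM1. The shares of all genes called in the same comparisons were 51.3% in M2, 36.2% in M1, 17.3% in EM3, 13.9% in EM2 and 17.9% in EM1, and the 24 of 46 in M2 are near that share. The EM1 count of 12 fell to 7 without E replicate 3 or EM1 replicate 1, the EM2 count of 7 to between 3 and 4 without any single E library or EM2 replicate 1, and the EM3 count of 10 to between 5 and 6 without any single E library. Of the 13 tested genes of latency and activation, 8 were called lower and 1 higher in M2, with a median log2 fold change of -2.16 beside 0.01 over all genes. In M1, 4 were called higher and 3 lower, with a median of 0.50 beside 0.03. In the fit with the set as a term, 2 of the 13 were called higher and 8 lower in M2, and 4 higher and 3 lower in M1. That fit called 53.4% of all genes in M2 and 36.1% in M1. The matrix proteoglycan decorin (DCN), which binds TGF-beta, had 12.97, 5.54 and 15.4 TPM in M2, 1752, 2443 and 1807 TPM in M1, and 40.5, 51.4 and 46.0 TPM in E. DCN was lower in M2 (log2 fold change -2.17 ± 0.39, edgeR adjusted p = 0.000161) and higher in M1 (5.30 ± 0.45, adjusted p = 5.8e-08). Fibrillin (FBN1), the microfibril protein that latent complexes attach to, had 30.0, 35.0 and 24.6 TPM in M1, against 1.44, 2.12 and 1.90 TPM in E (4.36 ± 0.53, adjusted p = 4.01e-06). It was also higher in EM3 (2.58 ± 0.49, adjusted p = 0.00123) and EM2 (1.99 ± 0.48, adjusted p = 0.00862). The integrin subunit ITGB8, which activates latent TGF-beta, had 0.38, 0.16 and 0.04 TPM in M2 and 2.79, 5.18 and 6.37 TPM in M1, against 19.8, 20.9 and 20.7 TPM in E. Its log2 fold change was -6.88 ± 0.75 in M2 (adjusted p = 4.76e-07) and -2.11 ± 0.59 in M1 (adjusted p = 0.00954), and the M1 call ended without M1 replicate 1 (adjusted p = 0.0526). Of the genes in these counts EMILIN1, called higher in all 5 clones, averaged 0.047 to 0.177 TPM in them and 0.003 TPM in E. DCN was lower in EM1 (-2.36 ± 0.40, adjusted p = 0.000481) and higher in EM3 (1.28 ± 0.38, adjusted p = 0.0267) and EM2 (1.51 ± 0.38, adjusted p = 0.0122). The EM3 call of DCN ended without any single E library or EM3 replicate 1 or 3, at adjusted p of 0.0671 to 0.106, and the EM2 call without E replicate 1 (adjusted p = 0.0611) or EM2 replicate 1 (adjusted p = 0.0605). Biglycan (BGN), a proteoglycan related to decorin, was lower in M2 (-5.60 ± 1.02, adjusted p = 0.000166) and EM1 (-4.75 ± 0.97, adjusted p = 0.00244), with set-term values of -5.0 in M2 and -3.94 in EM1. FURIN, the protease that cleaves the TGF-beta precursor, was lower in M2 (-2.16 ± 0.34, adjusted p = 3.69e-05) and M1 (-1.98 ± 0.34, adjusted p = 0.000175). It was also lower in EM3 (-1.10 ± 0.33, adjusted p = 0.0273, and -0.69 with the set as a term), a call that ended without any single E library or EM3 replicate 1 or 2 (adjusted p of 0.0554 to 0.127) and on the log2(TPM + 1) scale (adjusted p = 0.0747).

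Of the 17 transducers and inhibitors, 6 were called higher and 5 lower in M2, 6 higher and 2 lower in M1, 2 higher in EM3, 1 higher in EM2 and 4 higher in EM1, against E. Beside them, 51.3% of all genes were called in M2, 36.2% in M1, 17.3% in EM3, 13.9% in EM2 and 17.9% in EM1. With the set as a term the counts were 5 higher and 5 lower in M2, 6 higher and 2 lower in M1, 4 higher in EM3, 1 lower in EM2 and 2 higher in EM1, beside shares of all genes of 53.4% in M2, 36.1% in M1, 17.6% in EM3, 16.1% in EM2 and 16.1% in EM1 in that fit. SMAD2, the partner of SMAD3, was higher in EM3 (log2 fold change 0.82 ± 0.16, edgeR adjusted p = 0.00201) and in EM1 (0.86 ± 0.16, adjusted p = 0.00141). SMAD4, the common partner of receptor-activated Smads, was higher in EM3 (1.16 ± 0.30, adjusted p = 0.012) and EM1 (1.15 ± 0.30, adjusted p = 0.013), with set-term values of 0.69 in EM3 and 0.67 in EM1. The EM3 call of SMAD4 ended without E replicate 3 (adjusted p = 0.0583) or EM3 replicate 2 (adjusted p = 0.0553), and the EM1 call without E replicate 3 (adjusted p = 0.0604) or EM1 replicate 1 (adjusted p = 0.0766). SMURF2, a ubiquitin ligase of the receptors, was higher in M1 (1.25 ± 0.31, adjusted p = 0.00444), EM2 (1.05 ± 0.31, adjusted p = 0.0313) and EM1 (1.01 ± 0.31, adjusted p = 0.0314). In the fit that has the set as a term, SMURF2 was not called in EM2 (0.77, adjusted p = 0.0985) or EM1 (0.72, adjusted p = 0.125), and those calls also ended without any single E library, EM2 replicate 1 or EM1 replicate 1 or 2, at adjusted p of 0.0714 to 0.2. PMEPA1, which sequesters receptor-activated Smads, had 51.7, 17.9 and 29.6 TPM in M2 and 203, 477 and 290.2 TPM in M1, against 417, 418 and 406 TPM in E, and was lower in M2 (-3.96 ± 0.57, adjusted p = 1.32e-05). BAMBI, a decoy receptor, was lower in M2 (-1.69 ± 0.42, adjusted p = 0.0027) and M1 (-2.80 ± 0.44, adjusted p = 7.87e-05). FKBP1A, which holds TGFBR1 inactive, was higher in M2 (1.63 ± 0.18, adjusted p = 5.07e-07) and M1 (0.93 ± 0.18, adjusted p = 0.000436). The co-receptor endoglin (ENG) was higher in M2 (1.36 ± 0.21, adjusted p = 2.82e-05) and M1 (1.09 ± 0.21, adjusted p = 0.00046).

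Of the 16 transcriptional targets, 2 were called higher and 2 lower in M2, 7 higher and none lower in M1, 1 higher and 2 lower in EM3, 2 higher and 1 lower in EM2 and 1 higher and 3 lower in EM1, against E. The shares of all genes called were 51.3% in M2, 36.2% in M1, 17.3% in EM3, 13.9% in EM2 and 17.9% in EM1. The 4 of 16 targets called in M2 are under that share, and the 3 of 16 in EM3 are near it. With the set as a term the counts were 5 higher and 2 lower in M2, 9 higher and 0 lower in M1, 2 higher and 1 lower in EM3, 1 higher and 2 lower in EM2 and 1 higher and 2 lower in EM1. That fit called 53.4% of all genes in M2, 36.1% in M1, 17.6% in EM3, 16.1% in EM2 and 16.1% in EM1. The median log2 fold change of the targets was 0.42 in M2 and 1.07 in M1, beside 0.01 and 0.03 over all genes. The fibrillar collagen COL1A1 had 549, 789 and 641 TPM in M1, against 6.25, 5.97 and 6.29 TPM in E (log2 fold change 6.57 ± 0.74, edgeR adjusted p = 2.02e-06). TIMP3, an inhibitor of metalloproteinases, had 2.38 to 5.09 TPM in M2, 4.8 to 10.4 TPM in M1 and at most 0.02 TPM in any EM library, against 2.81 to 3.49 TPM in E. The immediate early gene JUNB (-2.34 ± 0.63, adjusted p = 0.00438) and COL4A1 (-1.92 ± 0.40, adjusted p = 0.000618) were lower in M2, and JUNB was called at -1.41 with the set as a term.

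The other named target calls ended when 1 library was left out. CCN1 in M1 (3.25 ± 1.03, edgeR adjusted p = 0.0193) ended without any single E library or M1 replicate 3 (adjusted p of 0.055 to 0.0823) and with limma-voom (adjusted p = 0.0528). SNAI2, a repressor of epithelial genes, was higher in EM3 (1.95 ± 0.56, adjusted p = 0.0213), and the call ended without any single E library or EM3 replicate 3 (adjusted p of 0.0678 to 0.0734). COL1A1 in EM2 (1.95 ± 0.61, adjusted p = 0.038) ended without any single E library or EM2 replicate 1 or 2 (adjusted p of 0.103 to 0.144). The actin gene ACTA2 was lower in EM1 (-2.62 ± 0.65, adjusted p = 0.00921), a call that ended without EM1 replicate 1 (adjusted p = 0.0561). In EM3 it was -1.83 ± 0.62 (adjusted p = 0.0487), which ended with the set as a term (-1.19, adjusted p = 0.051) and without any single E or M1 library, EM3 replicate 1 or 2, EM1 replicate 2, EM2 replicate 2, M2 replicate 1 or 2 or Parental replicate 1 or 3 (adjusted p of 0.0501 to 0.187). Fibronectin (FN1) in EM2 (0.87 ± 0.29, adjusted p = 0.049) ended with the set as a term (0.76, adjusted p = 0.0881), with DESeq2 size factors (adjusted p = 0.0506) and without any single E or EM2 library, EM1 replicate 2, EM3 replicate 1 or 2, M1 replicate 2 or 3 or M2 replicate 1 or 2 (adjusted p of 0.0511 to 0.149).

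Between the M clones, 8 of the 46 other genes were called higher in M2 than in M1 and 19 lower, with a median log2 fold change of -0.62 beside -0.02 over all genes. Of all genes, 19% were called higher and 22.2% lower in that comparison. DCN was lower in M2 (-7.47 ± 0.50, edgeR adjusted p = 1.07e-09), as were BGN (-5.98 ± 1.03, adjusted p = 0.000132), COL1A1 (-5.86 ± 0.72, adjusted p = 2.89e-06) and the basement membrane collagen COL4A1 (-5.15 ± 0.46, adjusted p = 5.61e-08). Of the feedback inhibitors, PMEPA1 (-3.51 ± 0.56, adjusted p = 5.22e-05) and SMAD7 (-1.32 ± 0.26, adjusted p = 0.000459) were lower in M2, as were SMAD2 (-1.15 ± 0.17, adjusted p = 1.78e-05) and ITGB8 (-4.77 ± 0.69, adjusted p = 1.82e-05).

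**Figure D4:**
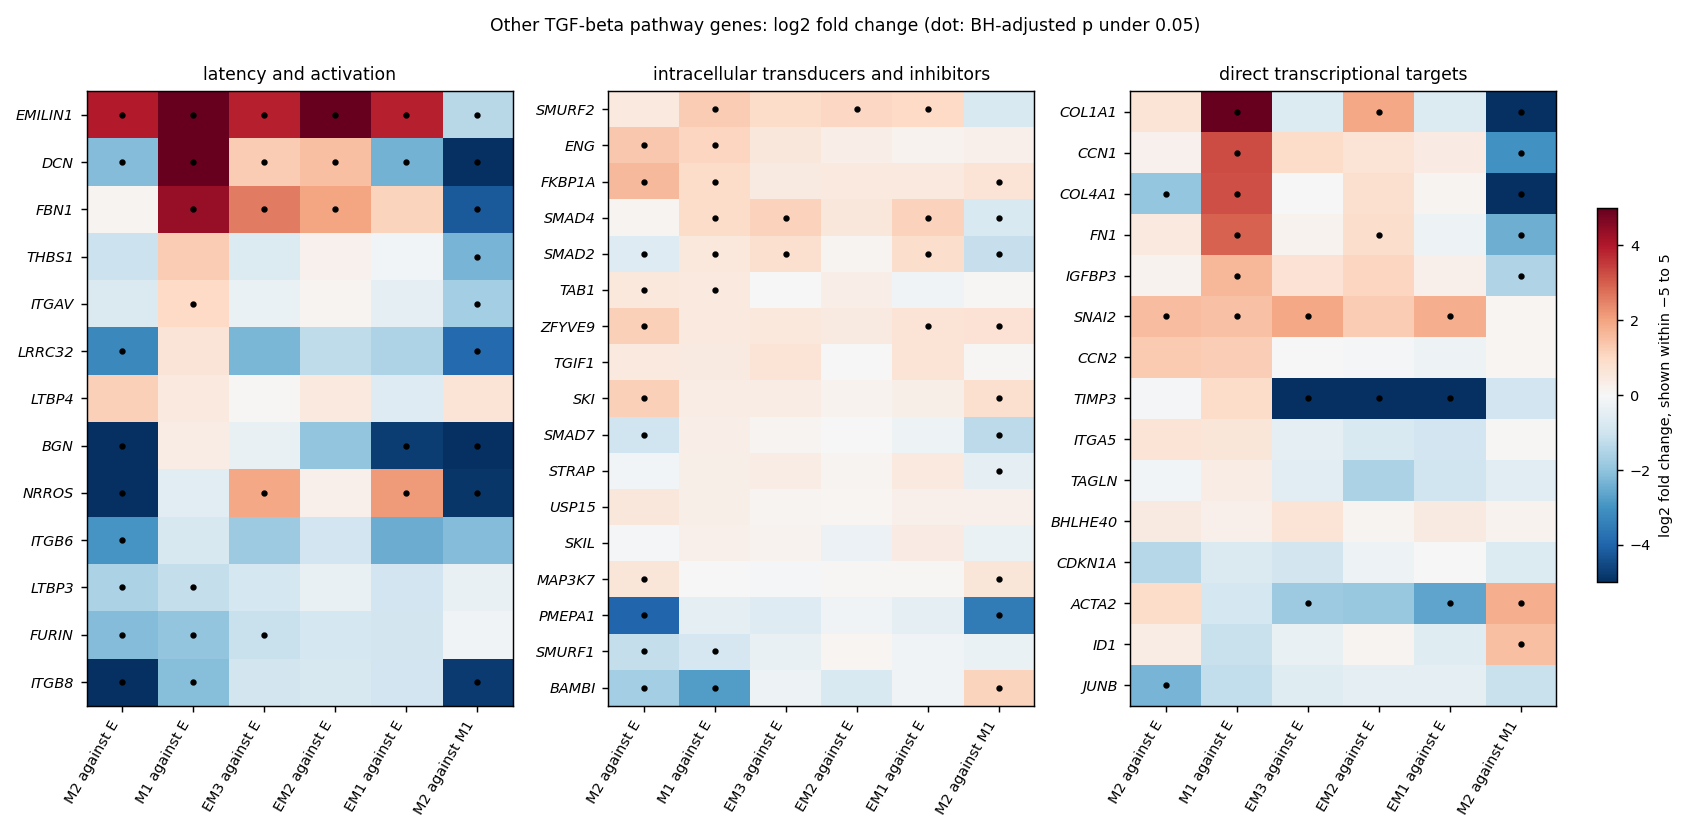
Log2 fold changes of the other pathway genes in each clone against E and in M2 against M1, grouped by role, with colours clipped at 5 in either direction. DCN is higher in M1 and lower in M2 than in E, and ITGB8 is lower in both.

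Over the 21 libraries, on the log2(TPM + 1) scale, TGFBR3 and TGFBI had a Pearson r of 0.87, TGFBR2 and TGFBR3 of 0.83, TGFBR2 and TGFBI of 0.79 and TGFB2 and TGFBR1 of 0.71. These points share 7 lines and the library sets, so they are a description. Among 11919 protein-coding genes, those most like LTBP1 were PFKFB4 (r = 0.93), THSD4 (0.93) and FLI1 (0.92), those most like TGFB2 were MCTS2 (0.95), PLA2G4A (0.94) and PF4 (0.92), and those most like TGFBR3 were RGL1 (0.97), F2R (0.97) and PRKD1 (0.96). The genes most like TGFBR2 were DENND4A (0.96), STK17B (0.95) and WAPL (0.95), and those most like TGFBI were GPAM, NUCB2 and NRIP3, each at 0.95. The gene most like SMAD3 was METRNL (0.89), and that most like TGFB3 was NDUFA6 (0.85).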

How the data were processed

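Poly(A) RNA of 7 lines, 3 libraries each, was sequenced with single-end reads. The tools, per the submitters' processing notes, were bcl2fastq 2.20.0.422, cutadapt 2.4, STAR 2.7.2b and RSEM 1.3.2, and the build was hg38; the annotation release and strand setting are not given in the sources used here. Per the file headers, the authors deposited an expected count, a TPM and an effective length per gene, and 7.4 to 8.6% of the expected counts the authors deposited in a library were not whole. TPM, as the authors deposited it, scales counts by effective length and library. Library totals were 24602417 to 48149939.

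After rounding, expected counts went into edgeR 4.0.16 under R 4.3.3, with TMM scaling, a filter on low counts by line and a robust quasi-likelihood F-test. A single fit took the 21 libraries and a mean for each line, leaving 14 residual degrees of freedom. P-values were adjusted by Benjamini-Hochberg over all 18632 genes of a comparison and genes under 0.05 are called higher or lower. Standard errors are the log2 fold change divided by the square root of F. Library sets were split by mean effective length over 13924 genes with a mean CPM of at least 1, and the fit with the set as a term omits Parental contrasts. The comparison of the long with the short set, and the fits within 1 set, were added after seeing the data. Positions come from GENCODE 29 on the same genome and promoters from RefSeq. DESeq2 1.42.0, limma 3.58.1 (voom, and log2(TPM + 1) or log2(TPM + 0.1)), other scalings and filters, a replicate block and leaving out each library were the alternatives. Tests ran on simulated data first.

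The members and the lists were chosen with earlier results of these data known. Named genes are the 10 members, then in each other list the 3 called genes with the largest log2 fold change and a mean of at least 1 TPM and the 3 genes most correlated with a member. Of the deviations of same-numbered libraries from their line means, every pair correlated above 0.1 in EM3 against EM2 alone (r of 0.40, 0.59 and 0.67), so the replicate numbers pair the samples there by this rule and not from the labels. Values of some listed genes are not reported here, while the list counts include every tested gene.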

Additional observations from a re-analysis of the deposited data

Results flagged for a closer look

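LTBP1 and TGFB2 were each called in opposite directions in the M clones, lower in M2 and higher in M1 than in E. A member was flagged only if M2 against M1 was called too, so that test is part of the rule and no separate check. The LTBP1 call in M2 against E ended on the log2(TPM + 1) scale (limma adjusted p = 0.113). The log2 fold change of M2 against M1 was -5.97 for LTBP1 (edgeR adjusted p = 3.34e-11) and -3.77 for TGFB2 (edgeR adjusted p = 1.75e-06). All 3 M2 libraries lay below all 3 M1 libraries for both genes. CDH1 averaged 0.053 TPM in M2 and 0.080 TPM in M1, and the part of any other difference between these clones in the result was not tested.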

How the results depend on the processing

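Counts of called members that moved by more than 1.5 times were as follows. The share of all genes called also moved with the set as a term, from 13.9% to 16.1% in EM2 against E. It went from 8.14% to 15.1% in EM2 against EM1 and from 6.74% to 11.5% in EM3 against EM2. Apart from the short set alone against E, the shares under the other settings are not given here. Whether the listed genes moved more than all genes there cannot be told from these counts. In EM2 against E the count of 1 became 2 with the set as a term, 2 with no filter on low counts, 4 with log2(TPM + 1), 4 with log2(TPM + 0.1), 4 in a fit of the compared lines only and 2 with a replicate block. In E against Parental the count of 0 became 3 with no filter, 2 with either TPM scale, 3 with the compared lines only and 1 with a replicate block. In EM2 against EM1 the count of 1 became 3 with the set as a term, 2 with no filter and 2 in the long set alone. In EM3 against EM2 the count of 1 became 2 with the set as a term, with no filter and with a replicate block. In M2 against M1 the count of 7 became 4 with log2(TPM + 0.1). Other pathway genes called in EM2 against E went to 16 with no filter and 15 with the compared lines only, and in EM3 against E to 17 and 18. In the short set alone, with 1 library of each other clone set against 3 of E, assumed to vary like E, members called were 7 in EM3, 6 in EM2 and 6 in EM1 against E. Other pathway genes called there against E were 41 in M2, 40 in M1, 32 in EM3, 32 in EM2 and 35 in EM1. Of 19012 genes tested there, 13404 were called in M2, 10588 in M1, 8224 in EM3, 6794 in EM2 and 8001 in EM1. The short set gave 4 members in EM2 against EM1 and 5 in EM3 against EM2, but each compares 1 library with 1, rests on the spread of the 3 E libraries, and is no test of the clones.

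Leaving out 1 library gave member counts of 6 to 7 in M2, 5 to 7 in M1, 1 to 3 in EM3, 1 to 2 in EM2 and 1 to 4 in EM1 against E, 0 to 1 in E against Parental, 1 to 2 in EM2 against EM1, 0 in EM3 against EM1, 1 in EM3 against EM2, 5 to 8 in M2 against M1 and 4 to 6 for the long against the short set. Other pathway genes ran 21 to 25 in M2, 15 to 22 in M1, 5 to 12 in EM3, 3 to 9 in EM2 and 7 to 16 in EM1 against E and 18 to 28 in M2 against M1. The low counts of TGFB3 and TGFBR3 limit their precision.

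Among the fold changes printed, directions turned only for TGFBR2 in the EM clones against E, where the set as a term gave -0.11 in EM3, -0.055 in EM2 and -0.0044 in EM1, and the short set alone gave -0.082 in EM3 and -0.31 in EM1; the cause was not tested. The replicate block changed the calls named in the report and no other call among the members named there. Among all lines, 13 of 21 libraries correlated best with a library of their own number. Parental has no value with the set as a term, and E none in the long set alone.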
